A study of Mus musculus with 4 samples.

Results

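The Trim genes encode the tripartite motif family, most of whose proteins are ubiquitin ligases built from a RING finger, B-box zinc fingers and a coiled coil followed by a C-terminal part that picks the target. Members were the rows of the deposited count table whose symbol is Trim, a number and at most 1 letter from a to d, which gave 68 genes of 27179. The RING recruits a ubiquitin-loaded E2 enzyme, and the ubiquitin chains that result mark a target for destruction or build a scaffold for signalling. In immune cells the family is known for setting the strength of signalling from RIG-I, STING and Toll-like receptors, for binding viruses in the cytosol and for repressing genes on chromatin, and type I interferon induces a number of its members.

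RNA-seq was done on 4 libraries of plasmacytoid dendritic cells (pDCs), the immune cells known for making type I interferon, which came from bone marrow of C57BL/6 mice cultured with Flt3 ligand over 8 days. Every culture received imiquimod, a TLR7 ligand, at 1 µg/ml during the 24 h before collection, and no unstimulated library was analysed here. After sorting on SiglecH and CD11b, 2 libraries were made from BFP-positive cells, whose blue fluorescent protein reports the chemokine gene Cxcl10, and 2 from BFP-negative cells. A population label calls the BFP-negative cells positive for CXCL10 while the design text calls them negative, so only the BFP part was used. Libraries with the same replicate number share a code in their titles that no label explains, and the main test did not pair them. Nothing says whether replicates were separate animals, so p-values measure the spread between these libraries. Library totals were 11868254 to 12570117 counts. Cxcl10 had 149 and 154 counts in BFP-positive against 3 and 19 counts in BFP-negative libraries, a check of the sort. The sort genes Siglech and Itgam (CD11b) had log2 fold changes of 0.39 and 1.78 (adjusted p = 0.0485 and 0.0546, edgeR's quasi-likelihood test), and Tlr7 was at -0.56 and was not called. Of 14 pDC markers, BFP-positive cells had 2 called higher and 4 called lower, and their summed level was 19342 to 20249 against 24312 to 28880 CPM (counts scaled to library size by TMM), most of it from Ly6d at 13612 and 12571 against 17289 and 20947 CPM. Of 17 conventional dendritic cell markers, 6 were higher and 1 lower (summed 1277 to 1403 against 914 to 945 CPM), and of 14 monocyte and macrophage markers, 6 were higher and 2 lower (1395 to 1546 against 657 to 790 CPM, with Mertk and C1qa at 0 in every library). Cd14 (97.6 ± 2.47 against 10.1 ± 0.373 CPM) and Csf1r (265 and 398 against 3 and 0 counts) were among those higher. The 2 lower were Apoe, at 1.31 ± 0.217 against 13.9 ± 4.49 CPM, and Adgre1, at 8.45 ± 2.48 against 30.2 ± 7.54 CPM. Ly6c2 was the largest part of the monocyte and macrophage sum, at 777 and 897 against 299 and 379 CPM. For comparison, 7.6% of all genes tested were called higher and 3.51% lower. Of the B cell, granulocyte, and T and NK cell markers 0 were higher, and 2, 0 and 1 were lower in that order, with summed levels of 95.3 to 105, 16.4 to 35.1 and 67.0 to 67.9 CPM in BFP-positive against 122 to 123, 16.6 to 30.0 and 121 to 142 CPM in BFP-negative libraries. Most of the T and NK cell sum was Cd5, at 61.0 and 57.2 against 110 and 138 CPM, while Nkg7 was at 2.92 and 1.65 against 0 and 0.394 CPM. The part of these cell type markers in the Trim values below was not tested, and in bulk RNA fewer cells of a type and less RNA per cell cannot be told apart.

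As a family the Trim genes were close to level between the groups, with a pair of exceptions with more RNA in BFP-positive cells, Trim35 and Trim43b. Of the 68 members, 36 had enough counts to be tested, 8 had a few counts and 24 had none in any library. Among the 36, 2 were called higher and 0 lower at an adjusted p under 0.05 in edgeR's quasi-likelihood test, adjusted by Benjamini-Hochberg over the 11706 genes tested. Over all those genes 7.6% were called higher and 3.51% lower, so the family's 5.56% higher lay near the background. At an unadjusted p under 0.05, 6 members were higher (16.7%, against 14% of all genes tested) and 1 lower (2.78%, against 10.6%), while DESeq2 and limma-voom also called 2 higher and 0 lower. The median log2 fold change (BFP-positive over BFP-negative) of the tested members was -0.05, against -0.02 over all genes tested, and its sign turned with the setting (-0.12 scaled by library totals, 0.12 with a stricter count filter), and 31 of the 36 members lay within 2-fold. CPM values of the groups did not overlap for 10 members that were higher and 5 that were lower, that is 27.8% and 13.9%, where all genes tested gave 27.1% in either direction. Summed over the family, the level was 1786 and 1825 CPM in BFP-positive against 1633 and 1664 CPM in BFP-negative libraries. Trim transcripts thus made up 0.175% and 0.177% of the counts in BFP-positive libraries against 0.169% and 0.168% in BFP-negative ones.

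Levels of different genes were compared per length, as the authors' deposited log2 RPKM (a read level scaled for gene length and library size). Trim30a, a mouse gene whose protein restrains Toll-like receptor signalling by promoting loss of TAB2 and TAB3, was the highest member at a mean log2 RPKM of 7.10 over the 4 libraries, and it took 28.3% to 31.6% of all Trim counts in a library. Next came Trim28 at a mean log2 RPKM of 6.00, Trim14 at 5.72 and Trim35 at 5.56, followed by Trim27, Trim12a, Trim30d, Trim7, Trim25 and Trim11 between 4.69 and 4.23. The libraries of Trim28, Trim14 and Trim35 overlapped in log2 RPKM, whereas Trim30a lay above them in every library. Below the 10 leaders, 30 members in all reached a mean of 1 RPKM. For the 24 members without a count, a count of 0 allows up to 3 counts, worth 0.239 to 0.253 CPM in a library, a bound that covers counting error only. They included the muscle genes Trim54, Trim63 and Trim72, the neuronal genes Trim2, Trim9 and Trim67, the stem cell gene Trim71, and the MHC-linked genes Trim10, Trim15, Trim31 and Trim40.

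**Figure D1:**
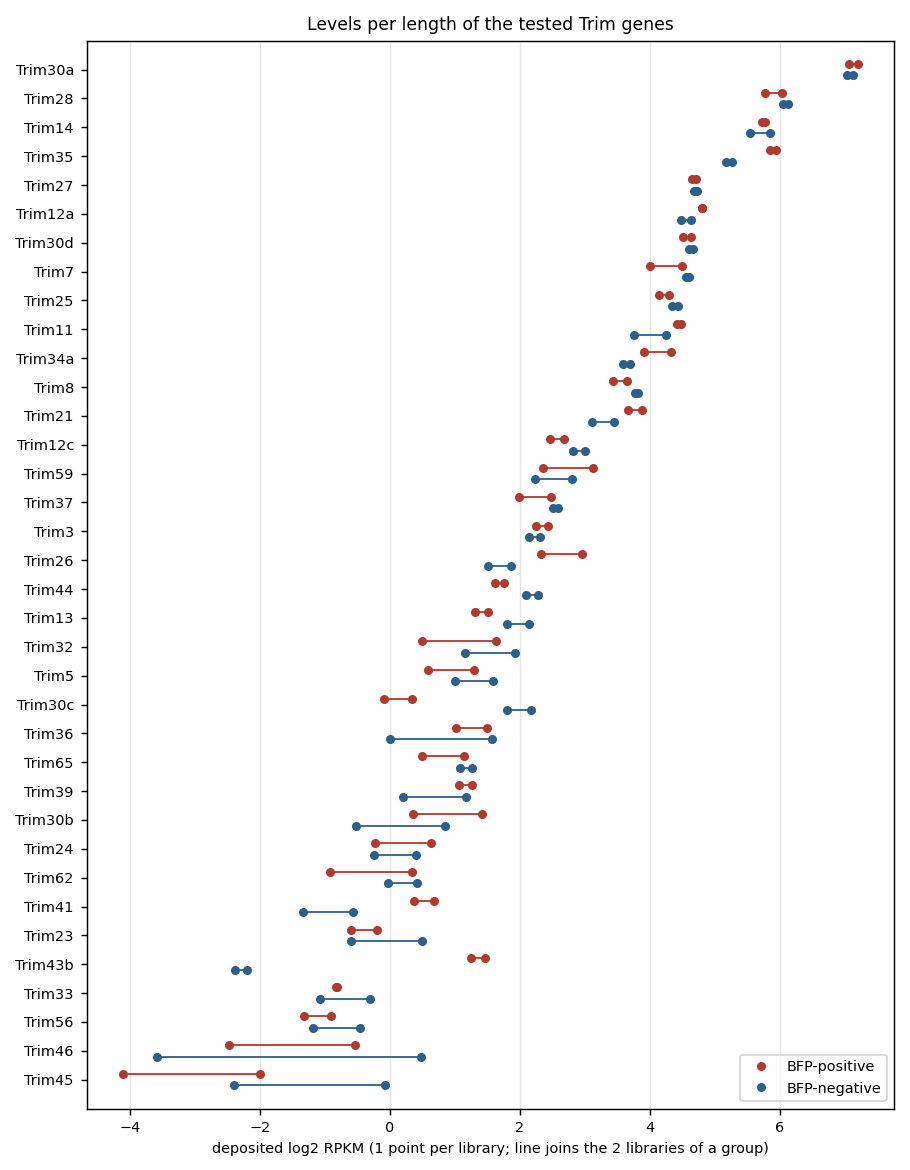
Deposited log2 RPKM of the 36 tested Trim genes (rows, ordered by their mean), with 1 point per library, BFP-positive in red above BFP-negative in blue, and a line joining the 2 libraries of a group. Trim30a stands apart at the top at a mean of 7.10, and the groups separate widely for Trim43b.

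Trim35 was the abundant member that rose. Its protein is a RING and SPRY ligase that has been reported to promote degradation of Irf7, the transcription factor of interferon alpha genes downstream of TLR7 and TLR9. Trim35 (Entrez gene 66854, chromosome 14, 66297025 to 66311424 on GRCm38) had 2510 and 2840 counts in BFP-positive against 1695 and 1676 counts in BFP-negative libraries. Both BFP-positive libraries, at 215 and 234 CPM, lay well above both BFP-negative ones, at 136 and 132 CPM. The rise was 1.67-fold, from a log2 fold change of 0.74 with an SE of 0.13 and a 95% interval of 0.45 to 1.04 (adjusted p = 0.00596, edgeR's quasi-likelihood test). Irf7 also rose, with 1229 ± 16.6 CPM in BFP-positive and 773 ± 140.0 CPM in BFP-negative cells (log2 fold change 0.67, SE 0.13, adjusted p = 0.0103, edgeR's quasi-likelihood test). Exons of Trim35 share 99 bases with an antisense transcript, 1700001G11Rik, which had 15 to 30 counts in a library.

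Trim43b showed the largest fold of the family from a low level. The Trim43 genes are known as a small group of copies expressed in the preimplantation embryo. Trim43b (Entrez gene 666747, chromosome 9, 89084624 to 89092835) had 74 and 67 counts in BFP-positive against 5 and 6 counts in BFP-negative libraries, or 5.93 ± 0.591 against 0.437 ± 0.0505 CPM (SD, n = 2 each). The groups were 3.73 apart on the log2 scale, with an SE of 0.73 and a 95% interval of 2.10 to 5.36. This was a 13.3-fold rise (adjusted p = 0.00915, edgeR's quasi-likelihood test). Trim43b passed the count filter only through the BFP-positive libraries, where it is high, and was also called with no filter on low counts. Its copies did not follow at this depth, with 1 and 0 counts for Trim43a and 0 and 2 counts for Trim43c in BFP-positive libraries and 0 for both genes in BFP-negative ones. Of the 50-base runs in annotated Trim43b transcripts, 47.7% also occur in transcripts of other genes, 34.4% in Trim43a, 30.3% in Trim43c and 11.8% in 9330159M07Rik, so reads may have been split or lost between the copies and the level of Trim43b is uncertain. The noncoding 9330159M07Rik had 19 and 8 counts in BFP-positive and 7 and 13 counts in BFP-negative libraries.

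**Figure D2:**
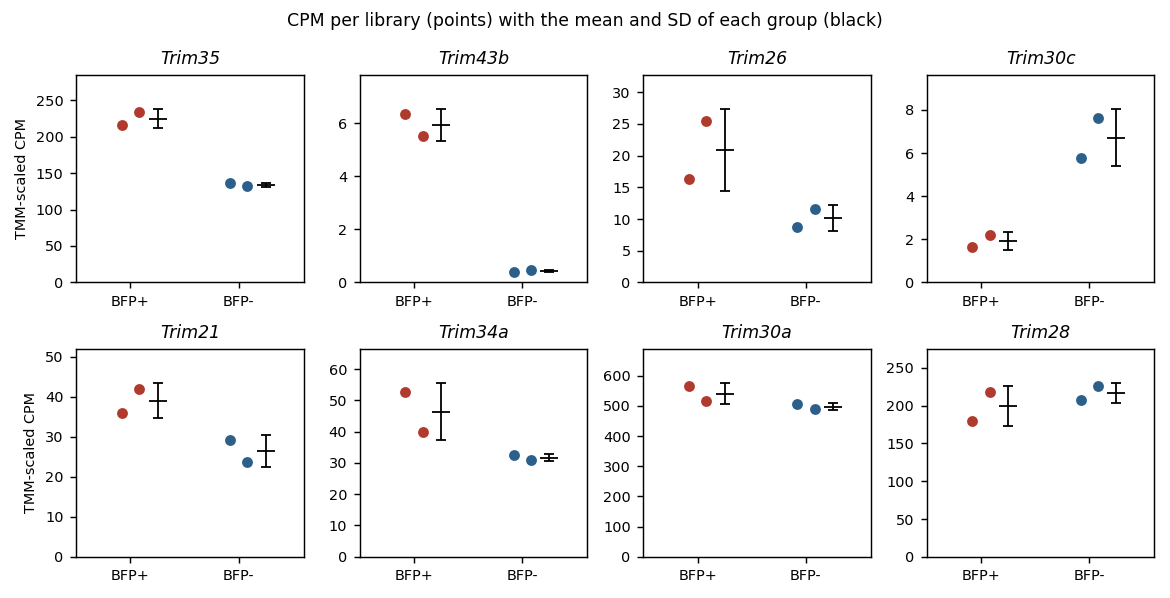
TMM-scaled CPM of 8 Trim genes, with 1 point per library, BFP-positive in red left of BFP-negative in blue, and the mean and SD (n = 2) in black on axes that start at 0. Trim35 and Trim43b are apart in every library, Trim26, Trim21 and Trim34a are higher and Trim30c lower without passing the test, and Trim30a and Trim28 differ little.

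The C-terminal SPRY domain, which binds the target, is the most common one of the family. Of the genes listed under it here, 10 form a cluster on chromosome 7, and whether each carries the domain was not analysed. Mice carry there copies related to human TRIM5, TRIM6, TRIM22 and TRIM34, a family known for restricting retroviruses in primates. In the cluster 8 members were tested, 0 were called in either direction, and the median log2 fold change was 0.06. Trim30a (Entrez gene 20128, 104409025 to 104465193) had 564 and 517 CPM in BFP-positive against 507 and 489 CPM in BFP-negative libraries. Although these do not overlap, the log2 fold change was only 0.12, SE 0.12, and its 95% interval of -0.14 to 0.38 holds changes of less than 2-fold. Its neighbour Trim30d had 94.6 and 87.8 against 92.2 and 90.5 CPM (log2 fold change -0.00, 95% interval -0.35 to 0.34), values that overlap. Trim12a was at 43.6 ± 0.139 against 35.1 ± 3.31 CPM and Trim12c at 22.8 ± 2.28 against 27.5 ± 1.83 CPM, with log2 fold changes of 0.31, SE 0.20 and -0.27, SE 0.24. Trim5, the mouse gene named after the primate restriction factor, was at 5.23 ± 1.81 against 6.36 ± 1.94 CPM.

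Further along the cluster, Trim34a, an interferon-induced gene, had 615 and 486 counts in BFP-positive against 404 and 392 counts in BFP-negative libraries. All of its BFP-positive values were higher, yet its log2 fold change of 0.55, SE 0.22 did not pass (adjusted p = 0.146, edgeR's quasi-likelihood test). Trim34b had 4 and 5 against 17 and 6 counts and Trim6 had 0 and 0 against 15 and 2 counts, too few to be tested. Trim30c was the cluster member with the largest difference, at 19 and 27 counts in BFP-positive against 72 and 97 counts in BFP-negative libraries. Its values are apart, at 1.93 ± 0.418 against 6.72 ± 1.32 CPM, a difference of -1.80 on the log2 scale with an SE of 0.58 and a 95% interval of -3.08 to -0.51, and it did not pass (adjusted p = 0.0765, edgeR's quasi-likelihood test). It did pass in limma on the deposited log2 RPKM (adjusted p = 0.0374). A filter of 50 counts in 2 libraries also gave a call (adjusted p = 0.0461 in edgeR's quasi-likelihood test), but Trim30c passed that filter only through the BFP-negative libraries, where it is high, so nothing is read from it. Trim30b had 88 and 44 against 60 and 24 counts, which overlap, and a log2 fold change of 0.73, SE 0.65. Copies in the cluster share sequence, so these values are uncertain where reads could be split. Of the 50-base runs, 59.7% of Trim34a and 56.8% of Trim34b occur in other genes, as do 36.6% of Trim5 and 33.7% of Trim12c, but 10.5% of Trim12a, 7.49% of Trim30d and 5.98% of Trim30a. For Trim34a, 609 exon bases (23.5%) also overlap an antisense gene, Gm47248, which libraries that do not mark strand cannot tell apart.

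Among the other SPRY members, 13 were tested and 2 were called higher, the Trim35 and Trim43b described above. That is 15.4%, against 7.6% of all genes tested. Trim43b passed the count filter only through the BFP-positive libraries, where it is high, so nothing is read from this share. The median log2 fold change over the list was 0.46, against -0.02 over all genes tested, and the class as a whole was not tested. Trim21, a cytosolic receptor for the constant part of antibodies that directs antibody-bound virus to the proteasome, had 418 and 511 counts in BFP-positive against 364 and 300 counts in BFP-negative libraries. Its groups did not overlap, at 39.0 ± 4.38 against 26.5 ± 3.95 CPM, and the log2 fold change of 0.56, SE 0.23 did not pass (adjusted p = 0.158, edgeR's quasi-likelihood test). Trim26, whose protein has been placed at Tbk1 and Irf3 signalling, had 190 and 309 against 109 and 147 counts. The BFP-positive libraries were both higher but differed from each other, and the log2 fold change of 1.04, SE 0.34 with a 95% interval of 0.28 to 1.79 did not pass (adjusted p = 0.0828, edgeR's quasi-likelihood test). Trim41 had 53 and 69 against 28 and 17 counts (log2 fold change 1.51, SE 0.64), again apart at a low level and not passing. Trim11, known for clearing misfolded proteins, had 598 and 604 against 367 and 539 counts and Trim39 was at 7.32 ± 0.691 against 5.32 ± 2.52 CPM.

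The other abundant members of this class were not called. Trim25, which adds ubiquitin chains that activate RIG-I, was at 106 ± 8.92 CPM in BFP-positive and 114 ± 7.66 CPM in BFP-negative libraries. Its single values overlap, and the 95% interval of its log2 fold change of -0.11 ran from -0.45 to 0.24. Trim14, which lacks a RING and works as an adaptor at MAVS, was at 78.9 ± 1.14 against 73.0 ± 11.9 CPM (log2 fold change 0.11, 95% interval -0.28 to 0.50), and 31.3% of its exon bases overlap the gene Nans on the other strand. Trim27 was close in both groups, at 110.0 ± 2.36 against 107.0 ± 0.573 CPM (log2 fold change 0.04, 95% interval -0.29 to 0.37, and -0.03 when scaled by library totals). Trim7, known for binding glycogenin, had 261 and 385 against 388 and 416 counts. The MDA5 activator Trim65 and the tumour suppressor candidate Trim62 were low, at 5.65 ± 1.79 against 6.73 ± 0.483 and 2.92 ± 1.69 against 3.59 ± 0.723 CPM.

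Chromatin-bound members carry a PHD finger and a bromodomain in place of SPRY. Trim28 (KAP1), the corepressor of KRAB zinc finger proteins, was the abundant one, at 180 and 218 CPM in BFP-positive against 207 and 226 CPM in BFP-negative libraries. The values overlap, with a log2 fold change of -0.12 and a 95% interval of -0.44 to 0.20. Its relatives Trim24, a nuclear receptor cofactor, and Trim33, a Smad4 ligase, were at 4.95 ± 1.99 against 4.29 ± 1.41 CPM and 5.13 ± 0.0325 against 5.55 ± 1.93 CPM, and Trim66 had no count. Of these 3 tested members 0 were called. Members with NHL repeats, which bind RNA or partners, were represented by Trim3 (15.4 ± 1.34 against 13.5 ± 1.40 CPM) and Trim32 (53 and 124 against 85 and 153 counts), and those with a microtubule-linked COS box by Trim36 (162 and 122 against 174 and 61 counts) and Trim46 (1.40 ± 1.17 against 2.33 ± 2.95 CPM). None of these 4 was called.

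The remaining class, with other C-terminal parts or none, had 8 tested members, of which 0 were called. The log2 fold change was negative for 7 of them, with a median of -0.31. Over all genes tested, 6065 of 11706 were negative and the median was -0.02, and the class as a whole was not tested. Trim44, which lacks a RING and carries a ubiquitin-protease-type zinc finger, had 17.5 and 19.6 CPM in BFP-positive against 26.4 and 23.8 CPM in BFP-negative libraries. Its groups were apart, but the log2 fold change of -0.44, SE 0.26 did not pass (adjusted p = 0.341, edgeR's quasi-likelihood test). Trim13, an anchored ligase of the endoplasmic reticulum, was likewise apart at 4.62 ± 0.458 against 6.53 ± 0.987 CPM, and Trim8, a regulator of TAK1 and SOCS1, at 38.7 ± 4.44 against 44.1 ± 0.134 CPM. Trim37, mutated in mulibrey nanism in humans, was at 27.5 ± 6.85 against 32.3 ± 1.88 CPM. Trim59 was at 20.8 ± 7.77 against 16.6 ± 4.27 CPM, Trim23, which carries an ARF GTPase domain, at 3.33 ± 0.633 against 4.27 ± 2.14 CPM, and Trim56, a partner of STING, at 1.72 ± 0.365 against 2.06 ± 0.761 CPM. Trim45 varied widely within groups, with 17 and 4 counts in BFP-positive against 13 and 69 counts in BFP-negative libraries, and so did Trim46 with 26 and 7 against 3 and 56 counts. For both the spread inside a group exceeded the difference between the groups.

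**Figure D3:**
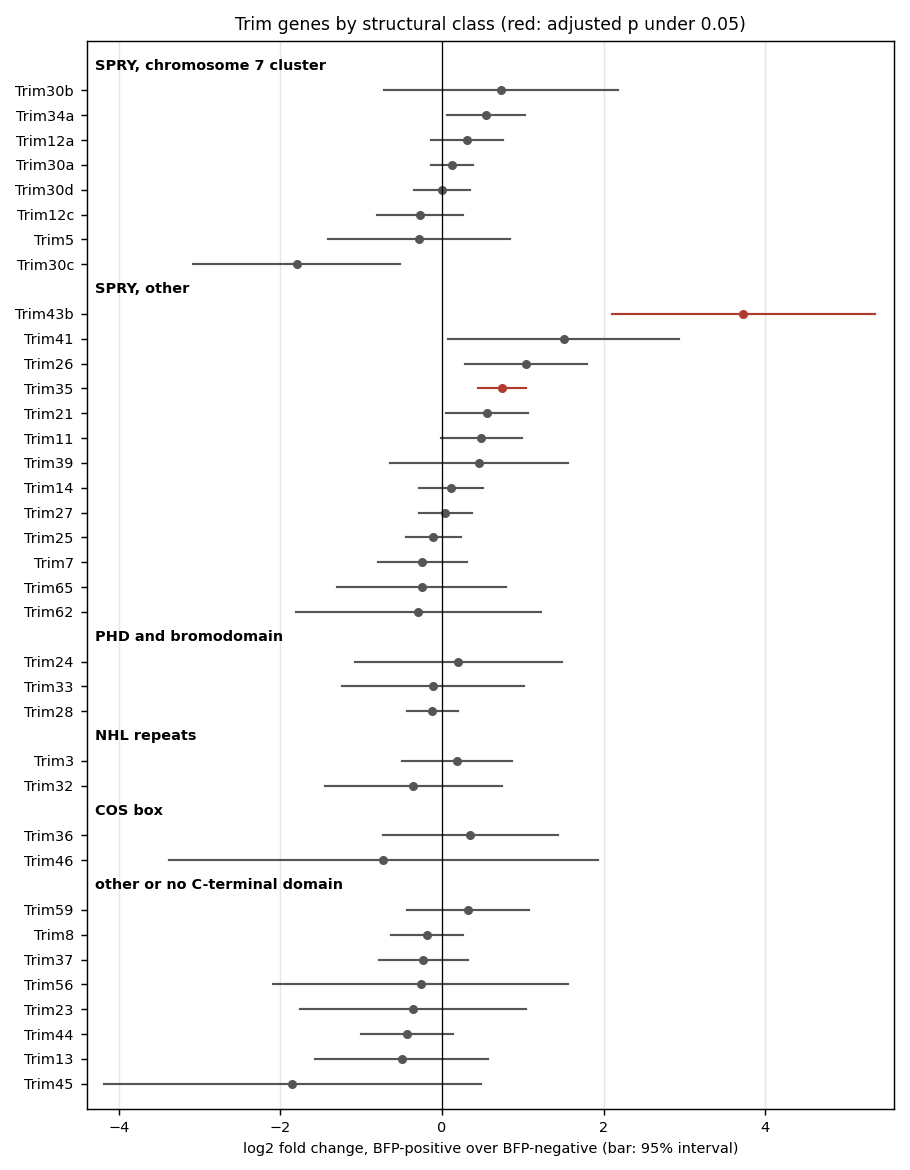
Log2 fold change (BFP-positive over BFP-negative) of the 36 tested Trim genes with 95% intervals, grouped by structural class, with members under an adjusted p of 0.05 in red. The intervals of 13 members lie within 2-fold either way, and the wide ones belong to genes with few counts.

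Since interferon induces part of the family, promoters were searched for 3 motifs on either strand, the interferon-stimulated response element (ISRE; GAAA, any 2 bases, GAAA), the PU.1 and IRF composite element (GGAA, any 2 bases, GAAA) and the gamma-activated site (TTC, any 3 bases, GAA). RefSeq promoters (GRCm38.p6, 250 bases before to 50 after a start) were matched for 53 of the 68 members and 27 of the 36 tested ones, by Entrez gene. Those without one among the tested members were Trim3, Trim8, Trim11, Trim14, Trim33, Trim35, Trim36, Trim43b and Trim65. The ISRE letters stood in 8 of the 27 tested members (29.6%), against 3.92% of the 9005 tested genes with a promoter and 3.99% of all 27025, the composite element in 5 (18.5%, against 2.95% and 3.16%) and the gamma-activated site in 3 (11.1%, against 8.26% and 9.55%). In the 250 bases before the start alone, the ISRE stood in 5 tested members (18.5%, against 3.42% of tested genes) and the composite element in 3 (11.1%, against 2.45%). The members with an ISRE were Trim21, Trim26, Trim30a, Trim30d, Trim34a, Trim5, Trim12a and Trim12c, and 7 of these 8 lie on chromosome 7. Where a composite match stands beside the ISRE in Trim5, Trim12a and Trim12c, the 2 overlap by 4 bases. Because they carry the regulatory letters that these members share, the stretches are printed in the direction of the motif with each ISRE in capitals, 5′ to 3′, where Trim30a has 2 starts.
Trim21 (chr7:102565439-102565484, minus strand): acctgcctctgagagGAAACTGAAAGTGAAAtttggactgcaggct
Trim26 (chr17:36836971-36837016, minus strand): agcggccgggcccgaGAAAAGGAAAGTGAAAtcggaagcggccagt
Trim34a (chr7:104244452-104244491, minus strand): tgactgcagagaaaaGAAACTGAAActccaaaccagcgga
Trim5 (chr7:104288131-104288170, plus strand): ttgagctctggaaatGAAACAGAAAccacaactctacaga
Trim12a (chr7:104315461-104315500, plus strand): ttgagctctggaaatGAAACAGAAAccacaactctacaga
Trim12c (chr7:104353354-104353393, plus strand): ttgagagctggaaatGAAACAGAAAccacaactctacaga
Trim30a (chr7:104465205-104465244, plus strand): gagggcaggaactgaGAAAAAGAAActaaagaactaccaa
Trim30a second start (chr7:104446099-104446138, plus strand): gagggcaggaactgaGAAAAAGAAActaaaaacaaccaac
Trim30d (chr7:104507866-104507905, plus strand): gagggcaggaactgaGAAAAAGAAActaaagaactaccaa

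The printed stretches of Trim5 and Trim12a are identical, as are those of Trim30d and the first start of Trim30a, and Trim21 and Trim26 each hold 2 overlapping ISRE matches. The matches lie from 160 bases before the start in Trim26 to 28 bases after it in Trim21. The whole promoters of Trim26, the ISRE member with the largest log2 fold change, and of Trim30a, the most abundant member, read as follows along the gene, with the same letters in capitals.
Trim26 (chr17:36836896-36837195, plus strand): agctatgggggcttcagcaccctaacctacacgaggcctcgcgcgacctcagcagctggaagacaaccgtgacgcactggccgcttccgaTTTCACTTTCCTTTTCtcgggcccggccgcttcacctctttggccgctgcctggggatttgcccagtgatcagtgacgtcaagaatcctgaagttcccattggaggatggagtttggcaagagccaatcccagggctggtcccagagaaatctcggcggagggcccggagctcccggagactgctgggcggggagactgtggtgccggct
Trim30a (chr7:104465144-104465443, minus strand): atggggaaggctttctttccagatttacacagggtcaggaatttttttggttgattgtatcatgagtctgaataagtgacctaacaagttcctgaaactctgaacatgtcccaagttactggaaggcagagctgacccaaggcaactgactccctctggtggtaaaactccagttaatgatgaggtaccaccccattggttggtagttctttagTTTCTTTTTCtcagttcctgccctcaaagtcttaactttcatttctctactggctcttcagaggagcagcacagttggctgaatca

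Of the 8 tested members with an ISRE, 0 were called, 5 had a positive and 3 a negative log2 fold change (Trim30d at -0.00, which turned positive with DESeq2 size factors), and the median was 0.22. The 19 tested members with a promoter sequence and no ISRE had 0 called and a median of -0.24. Over the whole table, 54 of 353 tested genes with an ISRE (15.3%) were called higher and 6 lower, with a median log2 fold change of 0.08, against 649 of 8652 genes (7.5%) and a median of -0.01 without one. Of the members with identical printed letters, Trim12a was at 0.31 and Trim5 at -0.28 on the log2 fold change scale (SE 0.20 and 0.51), and Trim30a at 0.12 and Trim30d at -0.00 (SE 0.12 and 0.15), and the difference within a pair was not tested.

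**Figure D4:**
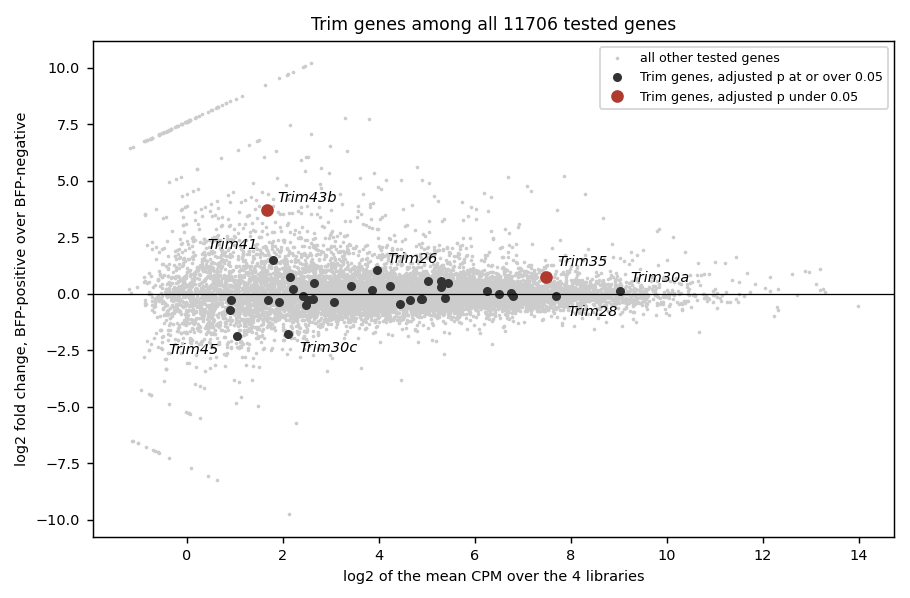
Log2 fold change (BFP-positive over BFP-negative) against the log2 of the mean CPM for all 11706 tested genes (grey) and the 36 tested Trim genes (black, or red under an adjusted p of 0.05). Trim35 at 0.74 and Trim43b at 3.73 are the red points and most other members lie near 0.

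Genes that work with the family were described from lists of relatives, E2 enzymes, ISG15 conjugation, signalling partners and chromatin partners. The lists were chosen with earlier results of these data known. The share of a list that was called is therefore a description, and no list was tested as a whole. Pml, the Trim19 protein of nuclear bodies that goes by another name, was close in both groups at 165 ± 6.11 against 164 ± 0.481 CPM (log2 fold change 0.01, SE 0.13, and -0.05 when scaled by library totals), and 0 of 3 tested relatives were called. Among the E2 enzymes and ubiquitin genes 0 of 14 tested were called, and 1 was called higher in DESeq2. At an unadjusted p under 0.05, 3 were higher (21.4%, against 14% of all genes tested) and 0 lower (against 10.6%). Ubb was abundant at 660 ± 90.1 against 619 ± 40.3 CPM.

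Of 5 ISG15 conjugation genes, for which Trim25 is a known ligase, 2 rose and 0 fell (median log2 fold change 0.59). That is 40% higher in a short list, against 7.6% of all genes tested. They were Uba7, the activating enzyme, at 213 ± 6.31 against 110 ± 10.9 CPM (log2 fold change 0.95, SE 0.14), and Usp18, the ISG15 protease, at 794 ± 71.7 against 516 ± 20.1 CPM (0.62, SE 0.12). Usp18 lost its call without BFP-positive replicate 1 (adjusted p = 0.0878, edgeR's quasi-likelihood test). Of 20 signalling partners, 5 rose (25%, against 7.6% of all genes tested) and 0 fell (against 3.51%), with a median of 0.25. Besides Irf7 they were Ddx58, the gene of RIG-I, at 14.3 ± 3.92 against 2.83 ± 0.131 CPM (log2 fold change 2.33, SE 0.42), Nmi at 59.2 ± 5.55 against 30.2 ± 0.287 CPM (0.97, SE 0.20), Tmem173, the gene of STING, at 469 ± 43.8 against 328 ± 19.3 CPM (0.52, SE 0.13), and Mb21d1, the gene of cGAS, at 4.58 ± 0.281 against 0.635 ± 0.217 CPM (2.83, SE 0.77). Mb21d1 was named after its values were seen, and nothing is read from its part in the 25%. It passed the count filter only through the BFP-positive libraries, where it is high. It lost its call in limma-voom and on leaving out any 1 of the 4 libraries (log2 fold changes of 2.53 to 3.24). Of the other calls, Nmi was lost without BFP-positive replicate 1, Ddx58 without BFP-positive replicate 2, and Tmem173 when either BFP-positive replicate 2 or BFP-negative replicate 1 was left out (adjusted p = 0.0636, 0.0624, 0.213 and 0.0663 in that order, edgeR's quasi-likelihood test). The list had 3 calls with BFP-positive replicate 1 left out, 2 with replicate 2 left out and 3 in limma on the deposited log2 RPKM, where Tmem173 and Mb21d1 were not called (adjusted p = 0.0654 and 0.0665). The Trim30a targets Tab2 and Tab3 were at 15.9 ± 5.17 against 22.9 ± 7.11 and 4.48 ± 1.80 against 1.31 ± 0.602 CPM and did not pass. Of 14 chromatin partners, 1 rose (7.14%, near the 7.6% of all genes tested) and 0 fell (median -0.30). It was Rara, a retinoic acid receptor that Trim24 binds, at 23.9 ± 3.75 against 10.8 ± 0.420 CPM (log2 fold change 1.14, SE 0.29), and its call was lost on leaving out either BFP-positive library or BFP-negative replicate 1 (adjusted p = 0.0516, 0.186 and 0.0693, edgeR's quasi-likelihood test) and in limma on the deposited log2 RPKM (adjusted p = 0.0826). Setdb1, the histone methyltransferase recruited by Trim28, had 100 and 216 against 238 and 233 counts.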

How the data were processed

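The authors deposited raw counts per gene for 4 libraries, whole numbers without normalization, and a log2 RPKM value per gene and library; GRCm38 and mm10 (builds) and Subread, featureCounts and limma (tools) are listed in the submitters' processing notes. How strand and reads with several matches were handled, and tool versions, are not given in the sources used here. Libraries were made with a SMART-Seq kit, per the labels' protocols, which amplifies cDNA by PCR. With a free offset for each gene, the deposited log2 RPKM followed log2 values from the counts with a prior count of 0.25. The match was within 0.01 for 94.5% of tested genes. It covers differences between libraries, and the levels of different genes were not checked this way.

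Genes were kept by filterByExpr (at least 10 counts, total of at least 15), leaving 11706, and fitted in edgeR 4.0.16 (R 4.3.3) with TMM scaling and no term but the group (biological coefficient of variation 24.7%, 855 rows had no symbol). P-values are two-sided and adjusted by Benjamini-Hochberg over all genes tested, with a threshold of 0.05. SE is the log2 fold change divided by the square root of F, and 95% intervals use the test's degrees of freedom. Errors of CPM are SD with n = 2. The fit was also run on simulated counts, and the outcome is not reported here. DESeq2 1.42.0 and limma 3.58.1 served as alternatives. Runs of 50 bases and exon overlaps were taken from GENCODE M21, also GRCm38. Replicates differed beyond sampling noise (chi-square per degree of freedom 14.9 in BFP-positive and 18.9 in BFP-negative libraries).

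The members, lists and motifs were chosen with earlier results of these data known. Named genes were members past the threshold, the 10 highest by log2 RPKM, a fixed set of 19 Trim genes and Pml, up to 4 called genes of each related list, and Cxcl10, Siglech, Itgam and Tlr7; other members were named after their values were seen. Likeness of the proteins was not analysed here, and the comparison of 50-base runs was chosen after seeing the data.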

Additional observations from a re-analysis of the deposited data

How the results depend on the processing

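Each result was recomputed under 13 alternatives, 4 of which left out 1 library. Trim35 and Trim43b were called higher in each alternative that kept all 4 libraries. Over all 13, their log2 fold changes were 0.68 to 0.80 and 3.63 to 3.87. Trim43b passed the count filters only through the BFP-positive libraries, where it is high. Of its calls, only the one without a filter on low counts is free of that. The number of members called lower was 1, Trim30c, with at least 50 counts in 2 libraries, a filter it passed only through the BFP-negative libraries, and 1 in limma on the deposited log2 RPKM, and 0 elsewhere. With the replicate number as a block, 3 members were called higher, Trim26 (adjusted p = 0.0389, edgeR's quasi-likelihood test) among them. Over all genes the block gave 1140 higher and 760 lower, against 890 and 411 without it, and Tlr7, the receptor of imiquimod, passed at -0.55. Same-numbered libraries also share a code in their titles, which no label explains, and the pairing was not used above. Their deviations correlated at 0.0594, but 2 libraries per group are too few to show whether they are matched. Leaving out a library gave 547 to 926 genes higher and 220 to 409 lower, and DESeq2 gave 1036 and 561.

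Of the tested members, 20 kept their direction under every alternative and 16 did not; none of these 16 was called under any. Scaled by library totals, Trim27 was at -0.0259 and Pml at -0.0508, and in limma on log2 RPKM at -0.0259 and -0.0510. Trim46 was at 0.0497 in limma-voom and 0.0464 on log2 RPKM. Trim30d was at 0.0088 with DESeq2 size factors, 0.0035 without a filter, 0.0105 with the stricter filter and 0.0088 in DESeq2. Leaving out each library in turn gave log2 fold changes of -0.0235 to 0.0518 for Pml, -0.0387 to 0.31 for Trim14, -0.78 to 0.28 for Trim23, -0.28 to 0.60 for Trim24, -0.26 to 0.0115 for Trim28, -0.0561 to 0.0507 for Trim30d, -1.05 to 0.13 for Trim32, -0.41 to 0.30 for Trim33, -0.20 to 1.32 for Trim36, -0.51 to 0.0001 for Trim37, -1.997 to 2.51 for Trim46, -0.69 to 0.0875 for Trim5, -0.59 to 0.19 for Trim56, -0.12 to 0.66 for Trim59, -1.05 to 0.20 for Trim62 and -0.62 to 0.0391 for Trim65. Where a group then held 1 library, it was assumed to vary like the other. Without BFP-negative replicate 2, Tlr7 passed at -0.70 and Itgam, the gene of CD11b, passed at 2.53. The 95% intervals of 13 of the 36 tested members lie within 2-fold, which limits what the others can show.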
